A study of Mus musculus with 48 samples.

Results

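Autophagy is the route by which a cell wraps part of its own content in a membrane and delivers it to the lysosome, and its genes were read here in the liver of mice whose hepatocytes lacked or kept p110α, the catalytic subunit of PI3Kα. The genes were *Ulk1*, *Becn1*, *Atg14*, *Wipi1*, *Map1lc3a*, *Map1lc3b*, *Gabarapl1*, *Sqstm1*, *Bnip3* and *Tfeb*. They were chosen by name and found as the probes, other than controls, that carry these names on the array, which gave 10 genes with 21 probes among 20486 genes measured. Liver RNA of 48 male mice was hybridized to one-colour Agilent arrays, 1 mouse per array and 6 mice in each of 8 groups. The groups combined genotype, diet and nutritional state. The p110αhep-/- mice (LKO in the labels) carried albumin-Cre and 2 floxed p110α alleles, and the p110αhep+/+ mice (LWT) were littermates with the floxed alleles and no Cre, so both genotypes share the floxed locus. Mice were 12 weeks old when they were put on a CTRL diet or a high-fat diet (HFD) for 12 weeks, and at the end they were fed ad libitum or fasted for 24 h and killed at ZT16, a time in the dark phase. Albumin-Cre acts in hepatocytes, whereas the RNA is that of whole liver, so transcripts of other liver cells are part of each value. Whether all of those cells keep p110α was not measured on the arrays.

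Autophagosomes form in steps. A kinase complex built on ULK1 starts the process and activates a lipid kinase complex that holds Beclin 1 and ATG14. The lipid it makes recruits WIPI proteins, and small ubiquitin-like proteins of the ATG8 family, LC3 and GABARAP among them, are then attached to the growing membrane, where receptors such as p62 and BNIP3 bind the cargo to be enclosed. In liver, autophagy is known to rise when food is withheld. Insulin acts through PI3K, AKT and mTORC1 to restrain it, and the transcription factors TFEB and FOXO, which insulin signalling keeps out of the nucleus, are known to switch on genes of this pathway. The arrays measure mRNA only, and the flux of material through autophagosomes was not measured on them.

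All 21 probes passed the filter on dim probes, and the brightest probe of each of the 10 genes, which stands for the gene below, was well above background on all 48 arrays. A level is a normalized log2 signal, and a difference is a log2 fold change from a limma fit over all 48 arrays. A gene was called higher or lower when its adjusted p (Benjamini–Hochberg over all probes kept) was at most 0.05. Between 52.3% and 59.3% of the spots of an array were well above background, no spot was saturated, and the median correlation of an array with the others of its group lay between 0.989 and 0.996. *Pdk4*, a known fasting gene, was higher in fasted than in fed mice of 3 of the 4 combinations of genotype and diet, by 1.33 in p110αhep+/+ mice on CTRL diet (SE 0.38, adjusted p = 0.00659), 4.13 in p110αhep-/- mice on CTRL diet and 1.25 in p110αhep-/- mice on HFD. In p110αhep+/+ mice on HFD its difference was -0.17 (adjusted p = 0.788). The probe of *Pik3ca*, which encodes p110α, was not lower in p110αhep-/- mice. Its level in fed mice on HFD was 12.58 to 12.99 in p110αhep+/+ and 13.08 to 13.56 in p110αhep-/- mice, a difference of 0.58 (adjusted p = 2.99e-07). Whether this probe (chromosome 3 of mm9, 32364747 to 32364806) lies in the floxed exons was not determined, so it does not check the deletion, and the genotypes stand as labelled. The 6 hepatocyte markers were well above background on all 48 arrays, with mean levels of 15.5 to 18.89.

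The probes lie on mm9 chromosome 5 for *Ulk1* (111213514 to 111213573), chromosome 7 for *Bnip3* (146082760 to 146082819), chromosome 8 for *Map1lc3b* (124120787 to 124120846), chromosome 6 for *Gabarapl1* (129492254 to 129492313) and chromosome 14 for *Atg14* (48160711 to 48160770). The promoters of these 5 genes are shown because their transcripts carry the differences described below and because factors that answer to insulin, fasting or low oxygen are known to bind short motifs in such regions. They are from RefSeq on GRCm38.p6, a build other than that of the probes, and run from 250 bases before to 50 bases after the start of the gene. Both strands were searched for short motifs known from the binding sites of such factors. The first was the E-box, CACGTG, which factors of the basic helix-loop-helix family bind. The longer core of the element that TFEB is known to recognise in genes of the lysosome, TCACGTGA, contains that E-box and overlaps it. The site of the FOXO factors, which insulin signalling keeps from the nucleus, was taken as GTAAACA on either strand. The core of the hypoxia element, known from genes induced at low oxygen, was taken as ACGTG, so each E-box also counts as a match of it. The antioxidant element, known from genes induced by oxidative stress, was taken as TGACNNNGC with any base at N. Capitals mark each match.
*Bnip3*, chr7:138909457-138909756, minus strand: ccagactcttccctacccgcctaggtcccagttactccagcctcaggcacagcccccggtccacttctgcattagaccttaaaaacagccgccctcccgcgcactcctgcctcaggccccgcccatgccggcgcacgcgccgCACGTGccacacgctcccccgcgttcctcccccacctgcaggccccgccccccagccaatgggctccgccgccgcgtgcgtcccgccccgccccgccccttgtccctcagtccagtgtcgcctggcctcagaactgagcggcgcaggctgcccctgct
*Atg14*, chr14:47568385-47568684, minus strand: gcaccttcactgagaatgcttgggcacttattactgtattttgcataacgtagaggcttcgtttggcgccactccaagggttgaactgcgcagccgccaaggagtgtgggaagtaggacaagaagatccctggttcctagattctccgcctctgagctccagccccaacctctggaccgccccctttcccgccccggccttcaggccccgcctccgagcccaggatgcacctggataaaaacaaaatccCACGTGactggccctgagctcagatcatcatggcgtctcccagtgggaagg
*Map1lc3b*, chr8:121590188-121590487, plus strand: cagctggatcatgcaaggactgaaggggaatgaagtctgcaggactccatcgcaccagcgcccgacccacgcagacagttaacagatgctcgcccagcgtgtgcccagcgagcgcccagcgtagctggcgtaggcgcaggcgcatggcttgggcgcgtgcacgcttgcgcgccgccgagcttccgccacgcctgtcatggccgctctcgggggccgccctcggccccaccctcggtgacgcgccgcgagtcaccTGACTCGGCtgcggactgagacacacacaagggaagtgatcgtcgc
*Ulk1*, chr5:110810032-110810331, minus strand: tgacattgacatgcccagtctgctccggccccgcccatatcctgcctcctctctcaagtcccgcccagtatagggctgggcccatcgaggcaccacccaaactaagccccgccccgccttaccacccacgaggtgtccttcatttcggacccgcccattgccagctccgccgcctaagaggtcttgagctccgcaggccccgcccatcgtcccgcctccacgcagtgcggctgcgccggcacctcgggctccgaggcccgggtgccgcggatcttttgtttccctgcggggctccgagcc
*Gabarapl1*, chr6:129532942-129533241, plus strand: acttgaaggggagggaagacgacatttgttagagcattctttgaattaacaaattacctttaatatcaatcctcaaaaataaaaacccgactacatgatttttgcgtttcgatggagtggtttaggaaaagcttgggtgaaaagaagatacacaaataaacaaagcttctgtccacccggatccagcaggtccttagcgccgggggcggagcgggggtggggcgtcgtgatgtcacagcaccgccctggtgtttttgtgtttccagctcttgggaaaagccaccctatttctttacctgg

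CACGTG was found in *Bnip3*, from -108 to -103 of the start, and in *Atg14*, from -1 to 5. It is present in 7.15% of all 32851 promoters of this length, and ACGTG, which matched at the same places, in 19.6%. TGACNNNGC was found in *Map1lc3b*, from 5 to 13 after the start, and is present in 12.4% of all promoters. *Ulk1* and *Gabarapl1* held none of these letters in this window, which says nothing of the factors. The promoters of *Sqstm1*, *Wipi1* and *Tfeb*, which are not shown, held none of them either. Of the 10 genes, 8 had a promoter in the table, with 10 promoters in all, since *Tfeb* has several starts. TCACGTGA, found in 0.974% of all promoters, and GTAAACA, found in 3.65%, were in none of the 10. The share of G and C was 71.7% in the promoter of *Bnip3*, 68% in *Ulk1* and *Map1lc3b* and 46.3% in *Gabarapl1*, where the median of all promoters was 52.7%.

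The first question was how the genes differ between fasted and fed liver. Fasted mice had more *Map1lc3b*, *Gabarapl1* and *Bnip3* mRNA than fed mice in both genotypes and on both diets. In contrast, *Ulk1* was lower in fasted mice of 1 combination, p110αhep+/+ on HFD, and *Becn1* and the brightest probe of *Tfeb* were called in none. In p110αhep+/+ mice on CTRL diet, 6 of the 10 genes were called higher in fasted mice and 0 lower, where 16% of all genes were called higher and 16.5% lower. On HFD, 4 were higher and 1 was lower in p110αhep+/+ mice, against 13.8% and 14.7% of all genes. In p110αhep-/- mice on CTRL diet, 5 were higher and 0 lower (16.4% and 19.1% of all genes), and on HFD 7 were higher and 0 lower (13.9% and 14.6% of all genes). The median difference over the 10 genes was 0.38, 0.16, 0.34 and 0.48 in this order, and that of all genes was between -0.001 and 0.004. These 4 comparisons use separate arrays. The arrays were washed in 2 batches with 3 arrays of every group in each, and all 45 differences called for the 10 genes in any comparison kept their direction within both batches. Within batches 1 and 2, 23 and 15 of them lost their call. The batches are parts of the arrays that gave the calls, so the kept direction is not separate evidence. All 3 genes named first were called higher in all 4 comparisons, as were 4.21% of all genes.

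**Figure D1:**
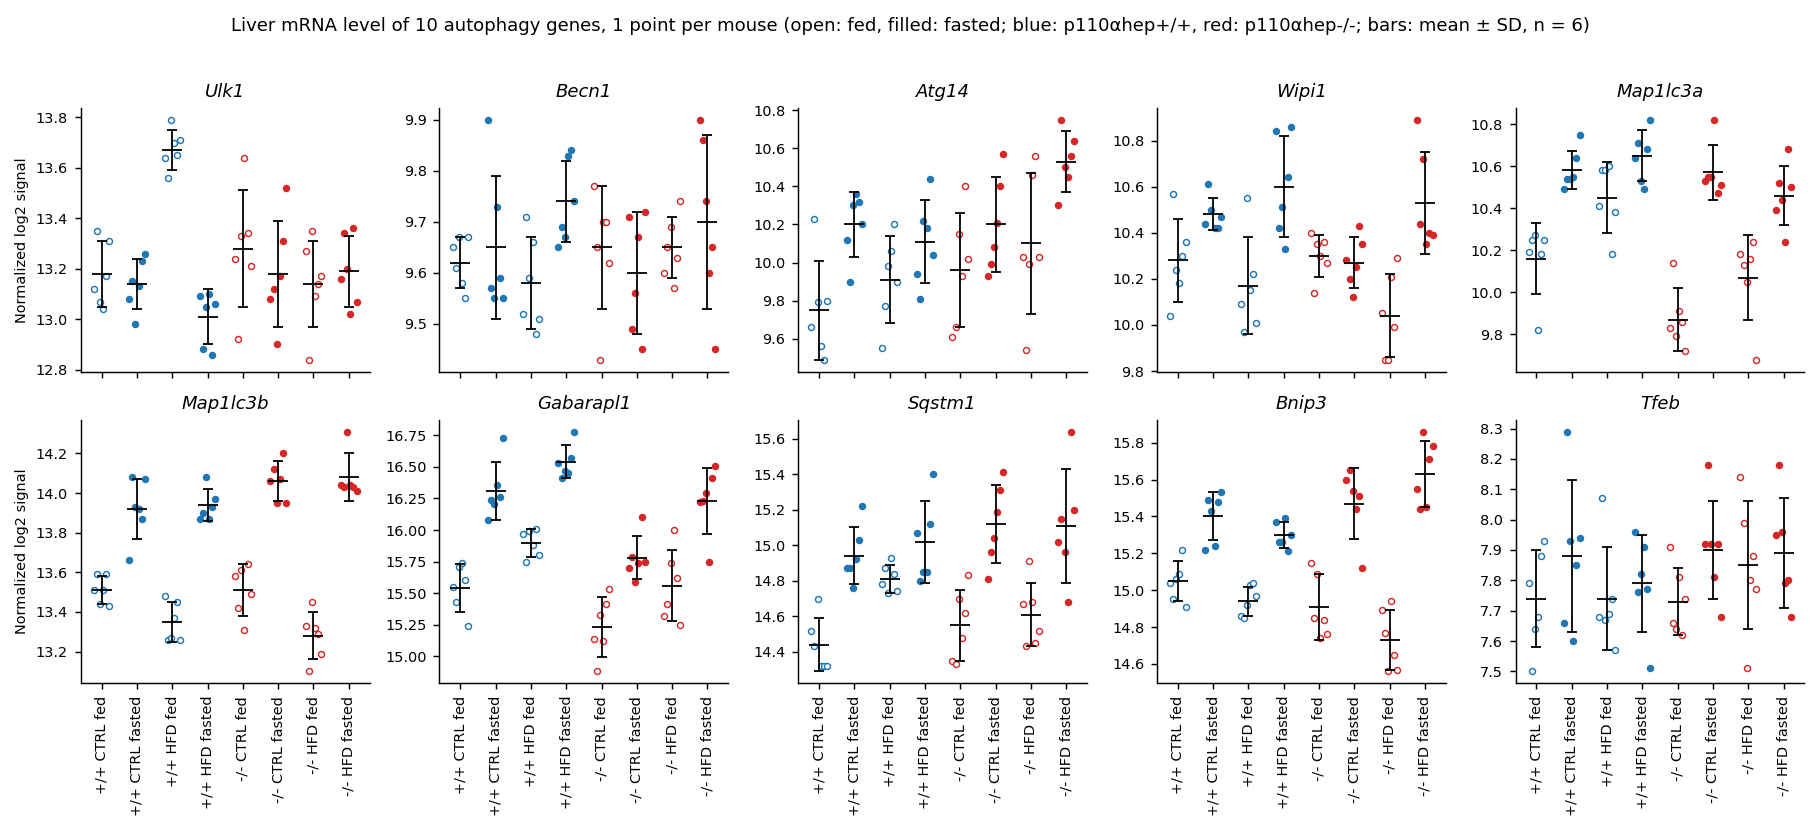
Normalized log2 signal (vertical axis, a scale of its own in each panel) of each of the 10 genes in each mouse, by genotype (blue p110αhep+/+, red p110αhep-/-), diet and nutritional state (open fed, filled fasted), with the mean ± SD of 6 mice. Fasted mice sit above fed mice in all 4 pairs of groups for *Map1lc3b*, and fed p110αhep+/+ mice on HFD, at 13.56 to 13.79, sit above almost all others for *Ulk1*.

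*Ulk1* encodes the kinase that starts autophagosome formation. Its level in p110αhep+/+ mice on HFD was 13.56 to 13.79 when fed (median 13.68, n = 6) and 12.86 to 13.1 when fasted (median 13.05). All fed mice were above all fasted mice. The difference between fasted and fed mice was -0.67 (SE 0.08, adjusted p = 9.65e-09), a fold change of 1.59, and it was -0.66 and -0.67 within each of the 2 washing batches. In the other combinations the fed and fasted mice overlapped. The level in p110αhep+/+ mice on CTRL diet was 13.04 to 13.35 when fed and 12.98 to 13.26 when fasted (difference -0.03, 95% interval -0.19 to 0.13, adjusted p = 0.826). Levels in p110αhep-/- mice on HFD were 12.84 to 13.35 when fed and 13.02 to 13.36 when fasted (difference 0.1, 95% interval -0.08 to 0.29). The fed p110αhep+/+ group on HFD is thus the one that stands apart, and the means of the other 7 groups were between 13.01 and 13.28. Of these, fed p110αhep-/- mice on CTRL diet, at 12.92 to 13.64, reached into its range. A second, dimmer *Ulk1* probe was also called lower in fasted p110αhep+/+ mice on HFD, by -0.41 (SE 0.09, adjusted p = 0.00033), and in no other fasting comparison.

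*Becn1* and *Atg14* encode Beclin 1 and the subunit that directs its lipid kinase complex to autophagosomes. The means of *Becn1* in the 8 groups spanned 0.15, from 9.58 to 9.74, with a mean SD within groups of 0.1, and its largest fasting difference was 0.15 in p110αhep+/+ mice on HFD (95% interval 0.03 to 0.27, adjusted p = 0.0597). *Atg14* varied more. Its level in p110αhep+/+ mice on CTRL diet was 9.49 to 10.23 when fed (median 9.72) and 9.9 to 10.36 when fasted (median 10.25), and the groups overlapped. The difference of 0.49 was called (SE 0.13, adjusted p = 0.00372). Levels in p110αhep-/- mice on HFD were 9.54 to 10.56 when fed and 10.3 to 10.75 when fasted, a difference of 0.46 (SE 0.15, adjusted p = 0.0166). This call rests on 1 array, since without replicate 2 of the fed p110αhep-/- mice on HFD it was 0.27 (adjusted p = 0.193), and within washing batch 1 it was 0.16 (adjusted p = 0.659). On the other combinations the differences were 0.17 and 0.14, with adjusted p of 0.369 and 0.447.

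*Wipi1* encodes a protein that binds the lipid made by that complex. Its level in p110αhep-/- mice on HFD was 9.85 to 10.29 when fed (median 10.02) and 10.35 to 10.89 when fasted (median 10.42). Every fasted mouse was above every fed mouse, and the difference was 0.49 (SE 0.1, adjusted p = 0.000194), with 0.33 within washing batch 1 (adjusted p = 0.0566). In p110αhep+/+ mice on HFD the groups overlapped, with levels of 9.97 to 10.55 and 10.33 to 10.86 and a difference of 0.41 (SE 0.09, adjusted p = 0.000291). With the median over the 3 *Wipi1* probes in place of the brightest, this last difference was 0.23 (adjusted p = 0.0582), and within washing batch 2 it was 0.22 (adjusted p = 0.328). The dimmer probes gave 0.23 and 0.25 there (adjusted p = 0.0599 and 0.0547), and 1 of them gave 0.25 in p110αhep-/- mice on HFD (adjusted p = 0.106). On CTRL diet the brightest probe gave 0.21 in p110αhep+/+ mice (adjusted p = 0.0618) and -0.07 in p110αhep-/- mice (adjusted p = 0.619).

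*Map1lc3a*, *Map1lc3b* and *Gabarapl1* belong to the ATG8 family. *Map1lc3b*, which encodes LC3B, the protein most used as a marker of autophagosomes, had levels in p110αhep+/+ mice on CTRL diet of 13.43 to 13.59 when fed (median 13.51) and 13.66 to 14.08 when fasted (median 13.93). On HFD, p110αhep-/- mice had 13.1 to 13.45 when fed (median 13.31) and 14.01 to 14.31 when fasted (median 14.03). In none of the 4 combinations did fed and fasted mice overlap. The differences were 0.42 in p110αhep+/+ mice on CTRL diet (SE 0.06, adjusted p = 6.66e-07), 0.6 on HFD (SE 0.06, adjusted p = 1.69e-10), 0.53 in p110αhep-/- mice on CTRL diet (SE 0.06, adjusted p = 5.41e-09) and 0.83 on HFD (SE 0.07, adjusted p = 4.24e-12). These are fold changes of 1.34, 1.51, 1.45 and 1.78. Within the washing batches they lay between 0.28 and 0.96. All 3 *Map1lc3b* probes were called higher in fasted mice in all 4 combinations.

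*Gabarapl1* encodes a member of the GABARAP branch of the family and had the widest span of group means of the 10 genes, 1.3, from 15.23 in fed p110αhep-/- mice on CTRL diet to 16.54 in fasted p110αhep+/+ mice on HFD. Its level in p110αhep+/+ mice on CTRL diet was 15.24 to 15.74 when fed (median 15.57) and 16.08 to 16.73 when fasted (median 16.25). On HFD the same mice had 15.75 to 16.01 when fed and 16.41 to 16.78 when fasted. Neither pair overlapped, and the differences were 0.76 (SE 0.11, adjusted p = 3.32e-07) and 0.62 (SE 0.1, adjusted p = 8.72e-06). On CTRL diet, p110αhep-/- mice had 14.88 to 15.53 when fed and 15.59 to 16.1 when fasted, with a difference of 0.49 (SE 0.11, adjusted p = 0.000416) and no overlap. The levels on HFD were 15.25 to 16 when fed and 15.75 to 16.51 when fasted, a difference of 0.7 (SE 0.12, adjusted p = 1.76e-05) with overlap, which was 0.42 within washing batch 1 (adjusted p = 0.0908). Both *Gabarapl1* probes were called higher in fasted mice in all 4 combinations.

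*Map1lc3a*, which encodes LC3A, was called higher in fasted mice in 3 combinations. In p110αhep-/- mice on CTRL diet its level was 9.72 to 10.14 when fed (median 9.85) and 10.47 to 10.82 when fasted (median 10.54), without overlap, and the difference was 0.73 (SE 0.08, adjusted p = 1.65e-09). It was 0.41 in p110αhep+/+ mice on CTRL diet (SE 0.08, adjusted p = 0.000105) and 0.38 in p110αhep-/- mice on HFD (SE 0.09, adjusted p = 0.00132), again without overlap, the latter 0.25 within washing batch 1 (adjusted p = 0.129). In p110αhep+/+ mice on HFD, where fed mice had 10.18 to 10.6 and fasted mice 10.49 to 10.82, the difference of 0.16 did not pass (95% interval 0.01 to 0.32, adjusted p = 0.119).

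*Sqstm1* and *Bnip3* encode cargo receptors, p62, which binds ubiquitinated cargo and LC3, and a protein of the outer mitochondrial membrane that takes part in the removal of mitochondria. *Sqstm1* was at 14.32 to 14.7 in fed and 14.76 to 15.22 in fasted p110αhep+/+ mice on CTRL diet, which did not overlap (difference 0.48, SE 0.1, adjusted p = 0.000392). In p110αhep-/- mice the differences were 0.5 on CTRL diet (SE 0.11, adjusted p = 0.000263) and 0.54 on HFD (SE 0.12, adjusted p = 0.000491), and fed and fasted mice overlapped in both. In p110αhep+/+ mice on HFD it was 0.15 (95% interval -0.06 to 0.35, adjusted p = 0.312). The dimmest *Sqstm1* probe gave less on CTRL diet, 0.17 in p110αhep+/+ (adjusted p = 0.0872) and 0.25 in p110αhep-/- mice (adjusted p = 0.0145), and in the latter the brightest probe gave 0.27 within washing batch 1 (adjusted p = 0.256). Within that batch the other 2 called differences of *Sqstm1* kept their size, 0.5 and 0.54, but did not pass (adjusted p = 0.0926 and 0.068). *Bnip3* was called in all 4 combinations. In p110αhep+/+ mice on HFD it was at 14.85 to 15.04 when fed (median 14.94) and 15.21 to 15.39 when fasted (median 15.28). In p110αhep-/- mice on HFD it was at 14.56 to 14.94 when fed (median 14.71) and 15.44 to 15.86 when fasted (median 15.63). Fed and fasted mice were apart in both, with differences of 0.35 (SE 0.07, adjusted p = 0.000326) and 0.87 (SE 0.09, adjusted p = 2.32e-10). On CTRL diet, where the groups overlapped, they were 0.35 in p110αhep+/+ mice (SE 0.08, adjusted p = 0.00036) and 0.58 in p110αhep-/- mice (SE 0.08, adjusted p = 9.26e-08). The former was 0.18 within washing batch 1 (adjusted p = 0.408), where the difference in p110αhep+/+ mice on HFD was 0.37 (adjusted p = 0.0564). The fold change in p110αhep-/- mice on HFD, 1.83, was the largest among the 45 called differences of the 10 genes, whose median fold was 1.4.

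*Tfeb*, which encodes the transcription factor that drives lysosome and autophagy genes and is regulated largely through its place in the cell, had group means that spanned 0.17, with a mean SD within groups of 0.17. Its levels lay between 7.5 and 8.29 over all 48 mice. No comparison called it by its brightest probe, and its fasting differences were 0.12, 0.08, 0.19 and 0.02, with adjusted p of 0.112 or more. The brightest probe is annotated to a predicted transcript (mm9 chromosome 17, 47896359 to 47896418), the others to curated ones (47924977 to 47929148). Of its 4 probes, 1 other was called lower in fasted p110αhep+/+ mice on CTRL diet (-0.22, SE 0.07, adjusted p = 0.00763), so the probes of *Tfeb* disagreed in sign there. That probe was also called in fed mice on HFD between genotypes (0.17, adjusted p = 0.0498) and in fed p110αhep+/+ mice between diets (-0.2, adjusted p = 0.0202), where the brightest gave 0.17 and -0.03.

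**Figure D2:**
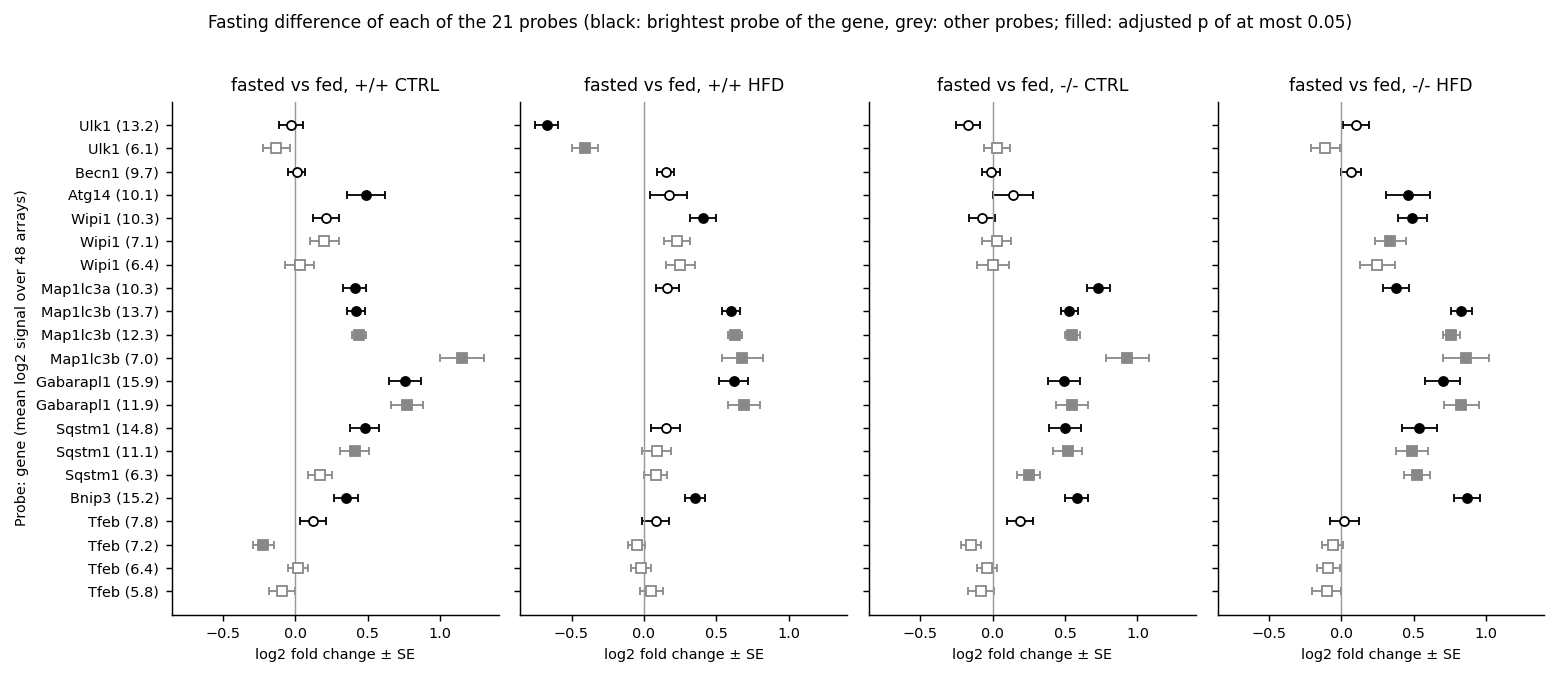
Difference between fasted and fed mice (log2 fold change ± SE, horizontal axis) for each of the 21 probes in the 4 combinations of genotype and diet, with the mean log2 signal of the probe in brackets. Black circles are the brightest probe of a gene, grey squares the others, and filled symbols passed an adjusted p of 0.05. All probes of *Map1lc3b* and *Gabarapl1* are filled in all 4 panels, and both *Ulk1* probes lie below 0 and are filled in the second panel.

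Some markers of other liver cells were called between fasted and fed mice. Of 7 markers of stellate cells and fibroblasts, 3, 1, 3 and 3 were called lower in fasted mice in the 4 combinations, and of 5 markers of bile duct cells 3, 1, 3 and 1, while none of these was called higher. Of 7 Kupffer cell and macrophage markers 1 was called, lower in p110αhep+/+ mice on HFD. In the same mice 2 of 6 endothelial markers were lower and 2 of 7 leukocyte markers higher, while 1 leukocyte marker was higher in p110αhep+/+ mice on CTRL diet and 1 endothelial marker in p110αhep-/- mice on each diet. Of all genes, 16%, 13.8%, 16.4% and 13.9% were higher and 16.5%, 14.7%, 19.1% and 14.6% lower, so a single marker called of 5 to 7 is a share near that of all genes. The summed signal of the bile duct markers was 559 to 735 in fasted and 750 to 1060 in fed p110αhep-/- mice on CTRL diet. This sum leans on *Spp1*, whose mean level over all arrays was 10.04, against 5.5 to 7.36 for the other bile duct markers. Of the 3 pancreatic acinar markers measured, 0, 1, 0 and 1 were called higher and 0, 0, 1 and 1 lower. Their sum in p110αhep-/- mice on CTRL diet was 5350 to 7420 when fasted and 8520 to 11400 when fed. It leans on *Cela1*, at a mean level of 13.05 over all arrays, against 7.21 for *Cela2a* and 7.23 for *Ctrb1*. Fewer cells of a type and less RNA per cell cannot be told apart in bulk liver. The part of these cells in the differences of the 10 genes was not tested.

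The second question was whether the genes differ between genotypes. *Gabarapl1* and *Map1lc3a* were called lower in livers without hepatocyte p110α. For *Gabarapl1* this was so in 3 of the 4 combinations of diet and nutritional state, of which those on HFD are fragile, as given below. For *Map1lc3a* it was so in fed mice on both diets, and *Ulk1* was called lower in fed mice on HFD. On CTRL diet, 0 of the 10 genes were called higher and 1 lower in fed mice (10.9% and 10.6% of all genes), and 0 higher and 1 lower in fasted mice (12.5% and 12.3%). On HFD, 0 were higher and 4 lower in fed mice (16.6% and 16.3%), and 2 higher and 1 lower in fasted mice (19.1% and 17.7%). The share of these genes called on CTRL diet was therefore no larger than that of all genes in either direction, and in fasted mice on HFD it was close to that of all genes for higher and below it for lower calls. Comparisons of genotype, diet and nutritional state share arrays with each other.

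**Figure D3:**
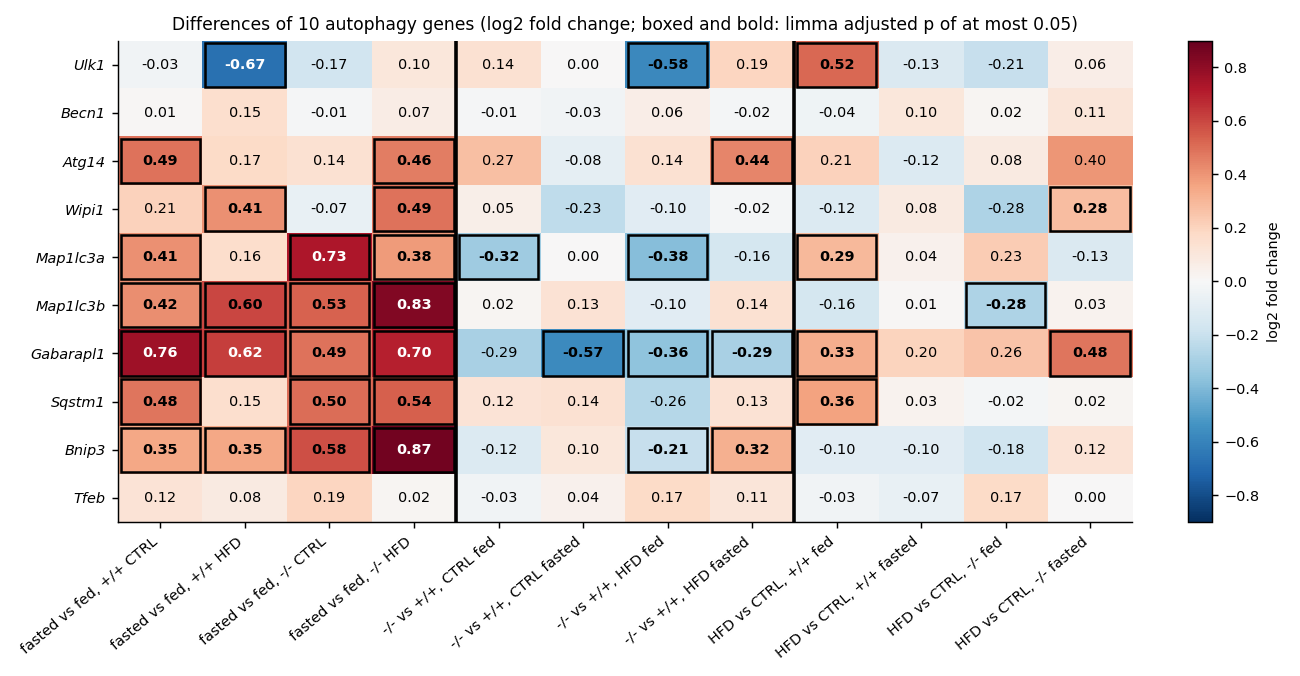
Differences (log2 fold change, colour and number) of the 10 genes (rows) in the 4 comparisons of fasted with fed mice, the 4 of p110αhep-/- with p110αhep+/+ mice and the 4 of HFD with CTRL diet (columns, separated by thick lines). Boxed cells in bold passed an adjusted p of 0.05. In the fasting block all boxed cells are above 0 except *Ulk1* in p110αhep+/+ mice on HFD (-0.67), and *Tfeb* and *Becn1* have no boxed cell in any block.

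*Ulk1* in fed mice on HFD was at 13.56 to 13.79 in p110αhep+/+ and 12.84 to 13.35 in p110αhep-/- mice. The genotypes did not overlap, and the difference was -0.58 (SE 0.08, adjusted p = 6.3e-07), with -0.5 and -0.64 within the washing batches. The second *Ulk1* probe gave -0.21 (SE 0.09, adjusted p = 0.0897). In the other 3 comparisons of genotypes the brightest probe of *Ulk1* gave 0.14, 0 and 0.19, with adjusted p of 0.244, 0.994 and 0.0826.

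*Gabarapl1* in fasted mice on CTRL diet was at 16.08 to 16.73 (median 16.25) in p110αhep+/+ and 15.59 to 16.1 (median 15.74) in p110αhep-/- mice. The ranges met at their ends, and the difference was -0.57 (SE 0.11, adjusted p = 7.73e-05), a fold change of 1.48. In fed mice on CTRL diet it was -0.29 and missed the threshold (95% interval -0.52 to -0.07, adjusted p = 0.0521). On HFD it was -0.36 in fed mice (SE 0.11, adjusted p = 0.00975) and -0.29 in fasted mice (SE 0.11, adjusted p = 0.0461). Both calls on HFD are fragile. The second *Gabarapl1* probe gave -0.18 and -0.05 there (adjusted p = 0.223 and 0.798), and the median over both probes -0.27 and -0.17 (adjusted p = 0.0508 and 0.259), whereas in fasted mice on CTRL diet the second probe was also called (-0.42, adjusted p = 0.00318). The brightest gave -0.2 in fed mice within washing batch 1 (adjusted p = 0.407) and, in fasted mice, -0.44 and -0.18 within batches 1 and 2 (adjusted p = 0.0584 and 0.469). In fed mice the difference was -0.31 (adjusted p = 0.0525) without replicate 2 of the p110αhep-/- mice. In fasted mice it lost its call when any one of 8 arrays was left out, replicates 1, 3, 5 and 6 of p110αhep+/+ and replicates 1 to 4 of p110αhep-/- mice, with values then of -0.31 to -0.2, and under median scaling it was -0.14 (adjusted p = 0.329).

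*Map1lc3a* in fed mice was at 9.82 to 10.27 in p110αhep+/+ and 9.72 to 10.14 in p110αhep-/- mice on CTRL diet, a difference of -0.32 (SE 0.08, adjusted p = 0.0042), which did not pass within either washing batch (-0.29 and -0.28, adjusted p = 0.0915 and 0.175). The levels on HFD were 10.18 to 10.6 and 9.68 to 10.24, a difference of -0.38 (SE 0.08, adjusted p = 0.000416). The genotypes overlapped on both diets. In fasted mice the differences were 0 and -0.16, with adjusted p of 0.997 and 0.134.

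*Bnip3* went opposite ways in fed and fasted mice on HFD. In fasted mice it was at 15.21 to 15.39 in p110αhep+/+ and 15.44 to 15.86 in p110αhep-/- mice, with no overlap, and the difference was 0.32 (SE 0.08, adjusted p = 0.00177), with 0.22 within washing batch 1 (adjusted p = 0.244). In fed mice it was at 14.85 to 15.04 and 14.56 to 14.94, a difference of -0.21 (SE 0.08, adjusted p = 0.0365), with -0.14 within washing batch 1 (adjusted p = 0.468). The fed difference lost its call when any one of 7 arrays was left out (replicates 4, 5 and 6 of p110αhep+/+ and 2, 3, 5 and 6 of p110αhep-/- mice, with values then of -0.22 to -0.17), and with the processed signal of the scanner software it was -0.09 (adjusted p = 0.433). *Atg14* in fasted mice on HFD was at 9.81 to 10.44 in p110αhep+/+ and 10.3 to 10.75 in p110αhep-/- mice, a difference of 0.44 (SE 0.14, adjusted p = 0.0127) with overlap. Without replicate 2 of the fasted p110αhep+/+ mice on HFD it was 0.36 (adjusted p = 0.061), and within washing batch 2 it was 0.2 (adjusted p = 0.384). The brightest *Map1lc3b* probe did not pass between genotypes in any comparison, with differences of 0.02, 0.13, -0.1 and 0.14 and 95% intervals that all lay between -0.22 and 0.27. The other *Map1lc3b* probes passed in some, one with 0.13 and 0.15 in fasted mice on CTRL diet and HFD (adjusted p = 0.0472 and 0.0254) and the dimmest with 0.45 in fed mice on CTRL diet (adjusted p = 0.0306). *Sqstm1* was called between genotypes by its dimmest probe alone, which was higher in p110αhep-/- mice by 0.27 and 0.34 in fed and fasted mice on CTRL diet and 0.33 in fasted mice on HFD (adjusted p = 0.0124, 0.000888 and 0.00164), where the brightest gave 0.12, 0.14 and 0.13.

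Markers of other liver cells were also called between genotypes. Of the 5 bile duct markers, 3 were called lower in p110αhep-/- mice in fed mice on CTRL diet and 4 in each of the other 3 comparisons. In fed mice on HFD they summed to 2540 to 5400 in p110αhep+/+ and 899 to 1130 in p110αhep-/- mice. Their defining keratins were dim, since *Krt19* was well above background on 45 and *Krt7* on 28 of the 48 arrays. The bile duct sum leans on *Spp1* here as well. Of the 6 endothelial markers, 1, 3, 1 and 4 were called higher and 1, 0, 2 and 0 lower in p110αhep-/- mice (fed and fasted on CTRL diet, fed and fasted on HFD), and of 7 leukocyte markers 0, 0, 2 and 1 were higher and 0, 0, 0 and 2 lower. Of the 7 markers of stellate cells and fibroblasts, 1, 2, 3 and 3 were called lower and 1, 0, 1 and 1 higher, and of the 7 Kupffer cell and macrophage markers 0, 1, 0 and 1 were higher and 0, 0, 0 and 1 lower. Of the 3 pancreatic acinar markers 1 was higher in each comparison and 1, 1, 0 and 1 lower. In fasted mice on CTRL diet they summed to 8790 to 14300 in p110αhep+/+ and 5350 to 7420 in p110αhep-/- mice, without overlap. The pancreatic sum leans on *Cela1* here too. Beside 10.9%, 12.5%, 16.6% and 19.1% of all genes higher and 10.6%, 12.3%, 16.3% and 17.7% lower, the counts of 1 of 6 or 7 are near the share of all genes. The part of these cells in the genotype differences above was not tested.

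The third question was the effect of the diet. Fed p110αhep+/+ mice on HFD had more *Ulk1*, *Sqstm1*, *Gabarapl1* and *Map1lc3a* mRNA than those on CTRL diet, and no gene of the 10 was called between diets in fasted p110αhep+/+ mice. In fed p110αhep+/+ mice, 4 of the 10 were called higher on HFD and 0 lower (12.4% and 11.7% of all genes). In fasted p110αhep+/+ mice limma called 0 in either direction (8.96% and 6.97%), and 0 had an unadjusted p under 0.05. Among p110αhep-/- mice, 0 were higher and 1 lower when fed (5.82% and 6.38%), and 2 higher and 0 lower when fasted (5.65% and 5.18%).

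*Ulk1* in fed p110αhep+/+ mice was at 13.04 to 13.35 on CTRL diet and 13.56 to 13.79 on HFD. All mice on HFD were above all mice on CTRL diet, and the difference was 0.52 (SE 0.08, adjusted p = 5.08e-06), while the second *Ulk1* probe gave 0.21 and did not pass (adjusted p = 0.0816). *Sqstm1* was at 14.32 to 14.7 on CTRL diet and 14.73 to 14.93 on HFD (difference 0.36, SE 0.1, adjusted p = 0.00872), and *Gabarapl1* at 15.24 to 15.74 and 15.75 to 16.01 (difference 0.33, SE 0.1, adjusted p = 0.0177). Neither overlapped, although the ranges were close. Without replicate 6 of the fed p110αhep+/+ mice on CTRL diet the difference of *Gabarapl1* was 0.26 (adjusted p = 0.0907), and its second probe gave 0.21 (adjusted p = 0.172) and the median over both 0.27 (adjusted p = 0.0533). Within the washing batches its brightest probe gave 0.25 and 0.39 and passed in neither (adjusted p = 0.358 and 0.133). The dimmest *Sqstm1* probe gave 0.11 (adjusted p = 0.345), and within the washing batches the brightest gave 0.52 and 0.22 and did not pass (adjusted p = 0.0827 and 0.28). *Map1lc3a* differed by 0.29 with overlap (SE 0.08, adjusted p = 0.00718), and by 0.14 within washing batch 2 (adjusted p = 0.514). In these mice 4 of the 7 markers of stellate cells and fibroblasts were also called higher on HFD, with summed signals of 27400 to 47700 against 23200 to 32900. This sum leans on *Dcn*, at a mean level of 14.73 over all arrays, against 6.18 to 11.06 for the others. Of the 3 pancreatic acinar markers measured 2 were lower, with sums, which lean on *Cela1*, of 6520 to 12600 on HFD against 10400 to 20200. Of 7 leukocyte markers 2 were higher and 2 lower, and 1 of 6 endothelial and 1 of 5 bile duct markers were higher. In fasted p110αhep+/+ mice 4 of the 7 stellate cell and fibroblast markers were also higher on HFD. The 7 summed to 27400 to 42500 there, against 21300 to 32400 on CTRL diet. Of their leukocyte markers 3 were higher and 1 lower. In addition, 2 endothelial and 2 pancreatic acinar markers were lower, and 1 bile duct and 1 Kupffer cell or macrophage marker were higher. Yet 0 of the 10 genes were called between diets in these fasted mice. The part of these cells in the differences between diets was not tested.

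Between diets, 3 of the 10 genes were called in p110αhep-/- mice. *Map1lc3b* was lower on HFD in fed mice, at 13.1 to 13.45 against 13.31 to 13.64, a difference of -0.28 (SE 0.07, adjusted p = 0.00385), where the dimmest probe gave 0.09 (adjusted p = 0.817) and the brightest -0.25 within washing batch 2 (adjusted p = 0.39). *Gabarapl1* was higher on HFD in fasted mice, at 15.75 to 16.51 against 15.59 to 16.1, a difference of 0.48 (SE 0.11, adjusted p = 0.00399), which did not pass within either washing batch (0.35 and 0.56, adjusted p = 0.311 and 0.0546). *Wipi1* was higher on HFD in fasted mice by 0.28 (SE 0.09, adjusted p = 0.0469). This last call was lost when any one of 7 arrays was left out (replicates 1 to 4 on CTRL diet and 1, 2 and 3 on HFD, with values then of 0.2 to 0.29) and with the median over the probes, at 0.13 (adjusted p = 0.454), and the dimmer probes gave 0.14 and 0.17. Within the washing batches the brightest gave 0.13 and 0.48 (adjusted p = 0.658 and 0.0697). The diets overlapped for all 3 genes. In fed p110αhep+/+ mice the probes of *Map1lc3b* disagreed in sign between diets, with -0.16 (adjusted p = 0.0507) for the brightest, -0.21 (adjusted p = 0.00212) for the next and 0.41 (adjusted p = 0.0367) for the dimmest. The dimmest *Sqstm1* probe was called lower on HFD in fed p110αhep-/- mice (-0.28, adjusted p = 0.0262), where the brightest gave -0.02. Of 6 endothelial markers, 1 was higher and 2 were lower on HFD in fed p110αhep-/- mice (5.82% and 6.38% of all genes). In fasted p110αhep-/- mice 1 of 6 endothelial and 1 of 3 pancreatic acinar markers were higher on HFD (5.65% of all genes). The part of these cells in the diet differences of p110αhep-/- mice was not tested.

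Whether the effects themselves differ between groups was tested with interactions. The fasting difference on HFD was compared between genotypes first. Of the 10 genes, 2 were called higher and 0 lower (1.67% and 1.69% of all genes), which means that fasted minus fed was larger in p110αhep-/- than in p110αhep+/+ mice. For *Ulk1* it was 0.1 against -0.67, an interaction of 0.77 (SE 0.12, adjusted p = 8.51e-05), with 0.73 and 0.76 within the washing batches, of which the latter did not pass (adjusted p = 0.0997). For *Bnip3* it was 0.87 against 0.35, an interaction of 0.53 (SE 0.11, adjusted p = 0.00389), with 0.36 and 0.76 within the batches, of which the first did not pass (adjusted p = 0.447). The 8 other genes did not pass, and their interactions lay between -0.08 and 0.39. The dimmest *Sqstm1* probe did pass, with 0.44 (adjusted p = 0.0246), where the brightest gave 0.39 (adjusted p = 0.169). On CTRL diet 0 of the 10 were called in either direction by limma (1.72% and 2.2% of all genes), while *Map1lc3a*, *Bnip3* and *Wipi1* had an unadjusted p under 0.05, with interactions of 0.32, 0.23 and -0.28.

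**Figure D4:**
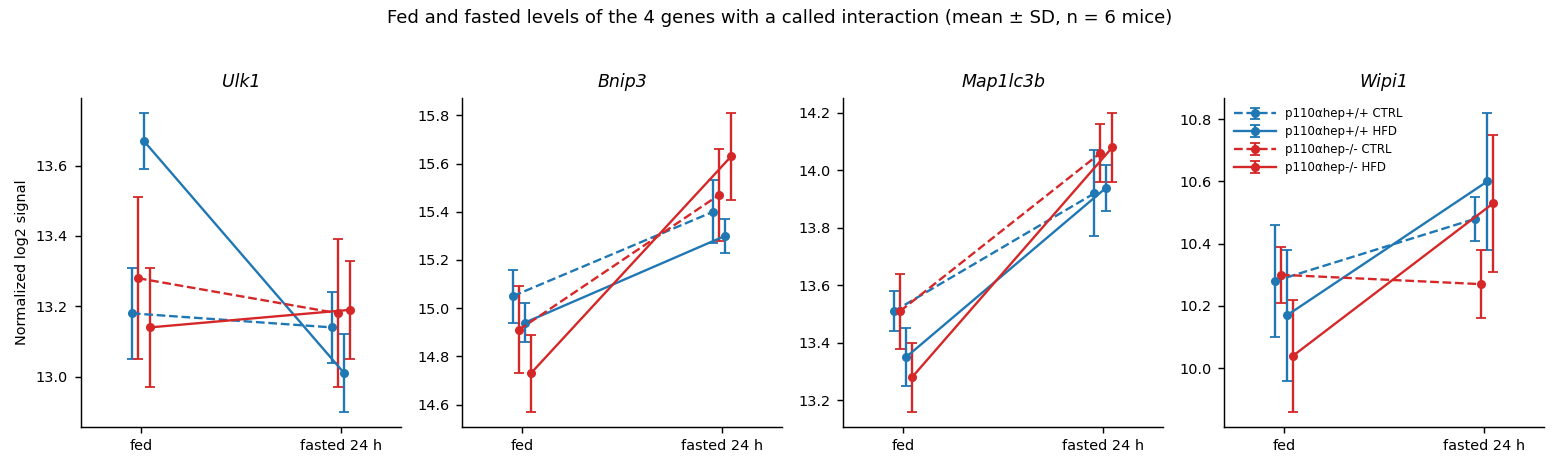
Mean ± SD (n = 6 mice) of the normalized log2 signal (vertical axis, a scale of its own in each panel) in fed and fasted mice of both genotypes (blue p110αhep+/+, red p110αhep-/-) on CTRL diet (dashed) and HFD (solid), for the 4 genes with a called interaction. The solid blue line of *Ulk1* falls from 13.67 to 13.01 while the other 3 lines stay between 13.14 and 13.28, and the dashed red line of *Wipi1* is the one that does not rise.

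The fasting difference was then compared between diets. In p110αhep+/+ mice 0 genes were called higher and 1 lower (0.849% and 1.51% of all genes). This was *Ulk1*, whose fasted minus fed difference was -0.67 on HFD and -0.03 on CTRL diet, an interaction of -0.64 (SE 0.11, adjusted p = 0.00089), with -0.56 and -0.75 within the batches, neither of which passed (adjusted p = 0.239 and 0.0973). In p110αhep-/- mice 2 were called higher and 0 lower (3.66% and 4.24% of all genes). For *Wipi1* the fasting difference was 0.49 on HFD and -0.07 on CTRL diet, an interaction of 0.56 (SE 0.13, adjusted p = 0.00587). It was 0.3 (adjusted p = 0.219) with the median over its probes, and 0.4 and 0.69 within the batches, where it did not pass (adjusted p = 0.141 and 0.147). For *Map1lc3b* it was 0.83 and 0.53, an interaction of 0.3 (SE 0.09, adjusted p = 0.0383). This call was lost when any one of 10 of the 24 arrays was left out, namely fed replicates 1, 3, 5 and 6 and fasted replicates 3 and 6 on CTRL diet, and fed replicates 2 and 6 and fasted replicates 1 and 3 on HFD, with values then of 0.25 to 0.3. The other 2 *Map1lc3b* probes gave 0.21 and -0.07 (adjusted p = 0.0845 and 0.894).

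The genotype difference was compared between diets last. In fed mice 0 genes were called higher and 1 lower (0.962% and 1.87% of all genes), again *Ulk1*, with -0.58 on HFD and 0.14 on CTRL diet and an interaction of -0.72 (SE 0.12, adjusted p = 0.000306), and within the batches it was -0.62 and -0.85 and did not pass (adjusted p = 0.0503 and 0.232). In fasted mice limma called 0 (2.08% and 2.88% of all genes) and *Atg14* had an unadjusted p under 0.05, with an interaction of 0.52 (adjusted p = 0.111). All 6 calls of *Ulk1*, of the fasting, genotype and diet differences and of the 3 interactions, use the 6 arrays of fed p110αhep+/+ mice on HFD and are not separate evidence. The second *Ulk1* probe gave 0.3, -0.28 and -0.16 for these interactions, in the same directions, and passed none (adjusted p = 0.243, 0.262 and 0.579).

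Ordered by their group means, the 10 genes fell into few steps. For *Map1lc3b* the 4 fasted groups (13.92 to 14.08) stood above the 4 fed groups (13.28 to 13.51), and the gap of 0.41 between the lowest fasted and the highest fed group exceeded the pooled SD of both, 0.12. For *Gabarapl1* the order ran from fasted p110αhep+/+ mice on HFD (16.54 ± 0.13, SD, n = 6) and CTRL diet (16.31 ± 0.23) to fasted p110αhep-/- mice on HFD (16.23 ± 0.26), fed p110αhep+/+ mice on HFD (15.9 ± 0.11), fasted p110αhep-/- mice on CTRL diet (15.78 ± 0.17), and then the fed groups at 15.56, 15.54 and 15.23. Fasted p110αhep-/- mice on CTRL diet thus had a mean below that of fed p110αhep+/+ mice on HFD, by less than their SD. For *Tfeb* and *Becn1* no pair of neighbours in the order was further apart than their SD. *Gabarapl1* was the one gene whose group means spanned over 1. The transcripts with the most similar pattern over the 8 group means were *Gm29669* (Pearson's r = 0.987), an unnamed transcript of chromosome 1 (r = 0.985) and *Appl2* (r = 0.98). These correlations rest on 8 means and were not tested. Among the 10 genes themselves, the most similar pair over the same means was *Map1lc3b* and *Bnip3* (r = 0.97), and *Ulk1* had r between -0.68 and -0.11 with the 9 others.

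The 10 genes were set beside a wider list of 95 autophagy and lysosome genes, ordered by role, of which 94 were measured. Leaving out the 10, 37 of 84 genes were called higher and 5 lower in fasted p110αhep+/+ mice on CTRL diet, 38 and 6 on HFD, 28 and 14 in p110αhep-/- mice on CTRL diet and 31 and 5 on HFD, and the median difference was 0.11, 0.14, 0.09 and 0.11. Of all genes, 16%, 13.8%, 16.4% and 13.9% were called higher and 16.5%, 14.7%, 19.1% and 14.6% lower, so the 14 lower genes in p110αhep-/- mice on CTRL diet are a share near that of all genes. In all 4 combinations, 16 of the 84 were called higher and 0 lower, against 4.21% of all genes called higher in all 4. Of 15 cargo receptors, *Sqstm1* and *Bnip3* included, 10, 11, 8 and 9 were called higher and 0, 1, 0 and 0 lower. *Fam134b* (now *Retreg1*), a receptor for the removal of endoplasmic reticulum, had differences of 0.99 (SE 0.17, adjusted p = 9.64e-06), 1.07, 1.52 and 1.81 (SE 0.19, adjusted p = 8.76e-10), the last a fold change of 3.52. *Optn*, a receptor for ubiquitinated cargo, was also called higher in all 4, by 0.38, 0.33, 0.68 and 0.22. Other genes of the list are given where they were among the 3 with the largest rise or fall of a comparison, so a gene named for 1 comparison may be called in others as well.

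Of 10 genes of nutrient signalling, 5, 6, 4 and 5 were called higher in fasted mice and 0, 0, 2 and 0 lower, and of 6 transcription factors 3, 3, 1 and 3 were higher and 0, 1, 1 and 0 lower. Beside 16%, 13.8%, 16.4% and 13.9% of all genes higher and 16.5%, 14.7%, 19.1% and 14.6% lower, the 1 transcription factor higher and the 2 nutrient genes lower in p110αhep-/- mice on CTRL diet are at the share of all genes. *Trp53inp1*, a p53 target that binds ATG8 proteins, was higher in fasted mice by 1.43, 0.89, 0.74 and 1.83 (adjusted p = 3.99e-06, 0.00202, 0.0113 and 6.83e-07). *Foxo1*, which encodes a factor that insulin signalling inhibits, was higher in fasted mice of all 4 combinations, by 0.84 and 0.71 in p110αhep+/+ and 0.67 and 0.99 in p110αhep-/- mice on CTRL diet and HFD. *Ddit4*, an inhibitor of mTORC1, was higher by 1.24 in fasted p110αhep-/- mice on HFD (SE 0.32, adjusted p = 0.00255). Other genes fell. *Ulk2*, the paralogue of *Ulk1*, was lower by -0.55 in fasted p110αhep-/- mice on CTRL diet (SE 0.07, adjusted p = 1e-07), as were *Fnip2* (-0.41), a partner of folliculin, and *Tecpr1* (-0.32), which takes part in the joining of autophagosomes and lysosomes. *Lipa*, the lysosomal acid lipase, was lower by -0.35 in fasted p110αhep+/+ and -0.47 in fasted p110αhep-/- mice on HFD. The remaining named falls were small, *Gabarap* (-0.22), *Ctsd* (-0.22) and *Mcoln1* (-0.17) in p110αhep+/+ mice on CTRL diet, *1700021K19Rik* (now *Rubcn*, -0.23) and *Fundc1* (-0.23) in p110αhep+/+ mice on HFD, and *Atg101* (-0.29) and *Atg4a* (-0.28) in p110αhep-/- mice on HFD.

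**Figure D5:**
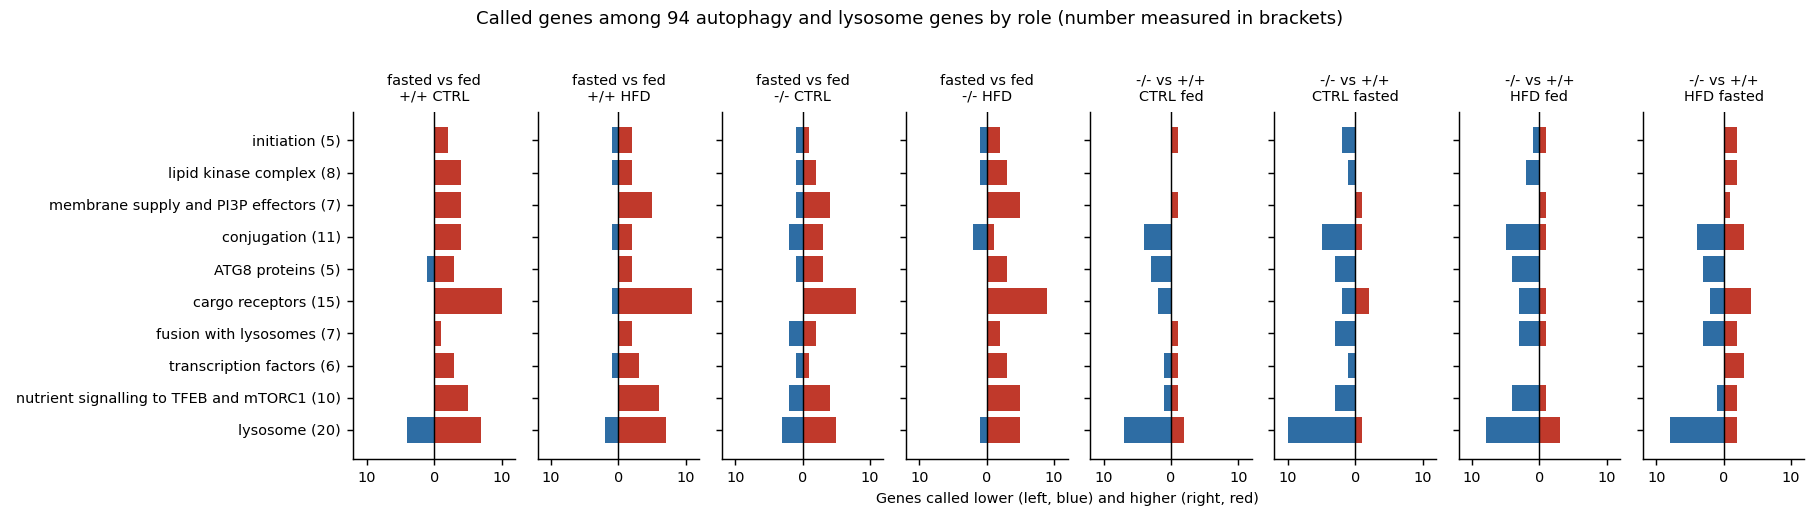
Number of genes called lower (blue, left) and higher (red, right) in fasted against fed mice and in p110αhep-/- against p110αhep+/+ mice, for the 94 measured autophagy and lysosome genes by role, the 10 genes included. Red bars are the longer ones for cargo receptors in the 4 fasting panels (8 to 11 of 15), and blue bars for lysosome genes in the 4 genotype panels (7 to 10 of 20).

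Between genotypes, lower calls outnumbered higher ones in the wider list except in fasted mice on HFD, where they were nearly equal. Of the 84 genes other than the 10, 7 were called higher and 17 lower in p110αhep-/- mice in fed mice on CTRL diet, 5 and 29 in fasted mice on CTRL diet, 9 and 26 in fed mice on HFD, and 19 and 20 in fasted mice on HFD. Of all genes, 10.9%, 12.5%, 16.6% and 19.1% were called higher and 10.6%, 12.3%, 16.3% and 17.7% lower in this order. Of 20 lysosome genes, 7, 10, 8 and 8 were lower and 2, 1, 3 and 2 higher in this order. *Lamp1*, a main protein of the lysosomal membrane, was lower by -0.47 in fasted mice on CTRL diet (SE 0.05, adjusted p = 6.42e-09), *Ctsa* by -0.47 in fed mice on CTRL diet (SE 0.07, adjusted p = 6.7e-07), and *Lipa* by -0.65 in fasted mice on HFD (SE 0.12, adjusted p = 3.5e-05). *Npc1*, which exports cholesterol from lysosomes, was higher by 0.38 and 0.37 in fed mice on CTRL diet and HFD. *Ctsl* was higher by 0.18 in fasted mice on CTRL diet.

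The conjugation enzymes, which attach ATG8 proteins to lipid, had 4, 5, 5 and 4 of 11 genes lower and 0, 1, 1 and 3 higher, where 10.6%, 12.3%, 16.3% and 17.7% of all genes were lower and 10.9%, 12.5%, 16.6% and 19.1% higher. *Atg7*, which activates the ATG8 proteins, was lower by -0.44 in fed mice on CTRL diet (SE 0.08, adjusted p = 0.000151) and by -0.77 in fasted mice on HFD (SE 0.09, adjusted p = 2.9e-09). *Atg4a* was lower by -0.56 in fasted mice on HFD (SE 0.06, adjusted p = 8.87e-10), whereas *Atg4d* was higher by 0.41 in fed mice on HFD. The receptor *Fam134b* was higher in fasted p110αhep-/- mice, by 0.76 on CTRL diet (SE 0.16, adjusted p = 0.000556) and 0.78 on HFD (SE 0.18, adjusted p = 0.000556). *Foxo1* (0.53) and *Fnip1* (0.4) were higher in fasted mice on HFD, *Atg2a* (0.26) in fasted mice on CTRL diet, *Atg13* (0.32) and *Atg9a* (0.3) in fed mice on CTRL diet, and *Sesn2* (0.43) in fed mice on HFD. Of the 10 genes of nutrient signalling, 1 was called lower and 1 higher in fed mice on CTRL diet, and 3 lower and 0 higher in fasted mice on CTRL diet. On HFD, 4 were lower and 1 higher in fed mice, and 1 lower and 2 higher in fasted mice. In fed mice on HFD the difference was -1.46 (SE 0.29, adjusted p = 0.000124) for *Ddit4* and -0.66 for both *Fnip2* and *Trp53inp1*. *Trp53inp2* was lower by -0.48 in fed mice on CTRL diet, and *Fnip2* (-0.54) and *Zkscan3* (-0.52), which encodes a repressor of autophagy genes, were lower in fasted mice on CTRL diet.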

How the data were processed

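Liver RNA of 48 mice was measured on Agilent one-colour mouse arrays, 6 mice in each of 8 groups taken from the labels. The deposited scanner files hold spot intensity, extracted per the labels with Agilent Feature Extraction 10.10.1.1 and not normalized between arrays. The authors also deposited log2 values, made by filtering, washing-batch correction and quantile normalization, and on the 30762 probes shared with the values used here each array correlated with its deposited column at r = 1. Here the log2 median signal of probes well above background on at least 5 of 6 arrays of a group was used (30793 of 56605 probes, 20486 genes), the 2 washing batches were removed with group means protected, and arrays were quantile normalized. Removing the batch before the fit takes no degree of freedom from it, so its p-values can be slightly too small, and quantile normalization gives all arrays one distribution, so levels are relative. Differences were tested with limma 3.58.1 in R 4.3.3 (array weights, all 48 arrays, 18 contrasts), with Benjamini–Hochberg adjustment over all probes kept and calls at 0.05. A gene is its brightest probe. Each mouse is 1 sample, and the number of arrays limits the precision. On simulated data for fasting in p110αhep+/+ mice on CTRL diet (20459 genes), 161 of 200 changes of 0.5 and 195 of 200 changes of 1 on the log2 scale were recovered, with 9 false calls.

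The members and lists were chosen with earlier results of these data known. Named genes were the 10 in every contrast, *Pik3ca* and *Pdk4* as checks, from the wider list up to 3 called higher and 3 called lower genes per fasting and genotype contrast, taken by size of the difference, and, for members whose group means spanned over 1, the 3 genes with the most similar group means. Promoters were read from a RefSeq table of GRCm38.p6, and the probe positions are those of the files (mm9). Alternatives were other background correction, scaling, filters, weights, probe choice, threshold, batch, slide and replicate blocks, the deposited values, and leaving out each array.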

Additional observations from a re-analysis of the deposited data

Results flagged for a closer look

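In 5 of the 80 sets of 6 mice (10 genes in 8 groups), 1 mouse was far from the others of its group, where chance gives about 1 in 20. *Map1lc3a* was at 10.82 in replicate 4 of the fasted p110αhep-/- mice on CTRL diet (nearest mouse 10.55), at 9.68 in replicate 6 of the fed p110αhep-/- mice on HFD (nearest 10.05) and at 9.82 in replicate 4 of the fed p110αhep+/+ mice on CTRL diet (nearest 10.18). *Map1lc3b* was at 14.31 in replicate 3 of the fasted p110αhep-/- mice on HFD (nearest 14.04). *Tfeb* was at 8.07 in replicate 2 of the fed p110αhep+/+ mice on HFD (nearest 7.74).

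Of 60 interactions tested for the 10 genes, 6 were called. The fasting difference on HFD was larger in p110αhep-/- than in p110αhep+/+ mice for *Ulk1* (0.77) and *Bnip3* (0.53). It differed between diets for *Ulk1* in p110αhep+/+ mice (-0.64), and for *Map1lc3b* (0.3) and *Wipi1* (0.56) in p110αhep-/- mice. The genotype difference of *Ulk1* in fed mice differed between diets (-0.72).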

How the results depend on the processing

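None of the 45 called differences of the 10 genes changed direction under any alternative run. The call was lost for 1 with the deposited values (*Wipi1* between diets in fasted p110αhep-/- mice), 0 with normexp background correction, 7 with the median over probes, 6 with the processed signal, 5 with median scaling, 4 with no filter on dim probes, 3 with the washing batch left in, and 23 and 15 within washing batches 1 and 2, which hold 3 arrays a group. A fold change over 1.5 as a further threshold left 11, since the median called fold was 1.4.

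Counts that moved are given as fasting (p110αhep+/+ CTRL, HFD, p110αhep-/- CTRL, HFD), genotype (fed CTRL, fasted CTRL, fed HFD, fasted HFD) and diet (fed and fasted p110αhep+/+, fed and fasted p110αhep-/-). With the fold threshold, the 10 genes gave 1, 3, 1 and 3 calls for fasting, 0 for each genotype comparison, 0 for diet in fed p110αhep+/+ and in both p110αhep-/- groups, 1 for genotype by fasting on HFD and 0 for diet by fasting in p110αhep-/- mice. The wider list gave 6, 6, 6 and 10 for fasting, 0, 1, 3 and 3 for genotype and 2, 0, 1 and 3 for diet. Within batch 1, the 10 genes gave 2 for fasting in p110αhep-/- mice on HFD, 0 and 1 for genotype (fed CTRL, fasted HFD), 2, 2 and 0 for diet (fed p110αhep+/+, fed and fasted p110αhep-/-) and 1, 0, 0 and 0 for the interactions with calls. Within batch 2 they gave 0 and 1 for the same genotype comparisons, 1, 0 and 0 for the same diet comparisons and 1, 0, 0 and 0 for those interactions. The wider list gave, within batch 1, 21, 19 and 19 for fasting (both p110αhep+/+ groups, p110αhep-/- HFD), 4, 15, 24 and 23 for genotype and 8, 1 and 2 for diet (not fed p110αhep-/-). Within batch 2 it gave 19 and 30 for fasting (p110αhep+/+ HFD, p110αhep-/- CTRL), 12, 15, 19 and 20 for genotype and 4, 4, 1 and 6 for diet.

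For genotype in fed mice on CTRL diet the count of the 10 was 2 with normexp, with probes above background on all 48 arrays, with the slide as a block and with only the groups compared. In fasted mice on CTRL diet it was 2 with median scaling, that stricter filter, the median over probes and only the groups compared, and in fed mice on HFD it was 2 with the processed signal. For diet, the processed signal gave 1 in fasted p110αhep+/+ mice (21 of the wider list). In fed p110αhep-/- mice median scaling gave 3, the stricter filter and the slide block 2, and no filter gave 8 of the wider list. In fasted p110αhep-/- mice the count was 1 with the processed signal, median scaling, no filter, batch not removed, slide block, no weights, deposited values and median over probes. For diet by fasting in p110αhep-/- mice it was 1 with the processed signal, median scaling, no filter, batch not removed, no weights and only the groups compared, and 0 with the median over probes. The causes were not tested.

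Leaving out each array in turn gave 1 to 2 calls among the 10 for genotype in fed and in fasted mice on CTRL diet, 2 to 4 in fed mice on HFD, 1 to 4 and 1 to 3 for diet in fed and fasted p110αhep-/- mice (10 to 22 of the wider list in the latter), 0 to 1 for genotype by fasting on CTRL diet and 1 to 3 for diet by fasting in p110αhep-/- mice.

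Groups share replicate numbers, but same-numbered arrays showed little shared deviation (r from -0.34 to 0.32 over 168 pairs, median 0.014). The median was -0.005 for other pairs, and the mice were treated as unpaired. A weak pairing, or one that touches few genes, cannot be seen in this way. With the replicate number as a block, 7, 5, 5 and 7 of the 10 were called for fasting, 1, 1, 3 and 3 for genotype and 4, 0, 1 and 3 for diet, and *Bnip3* between genotypes in fed mice on HFD lost its call (-0.21, adjusted p = 0.0555).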
